A study of Rattus norvegicus with 22 samples.

Results

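Cnr1, Mgll and Faah, the gene of the cannabinoid receptor that WIN activates and the genes of both main endocannabinoid hydrolases, were followed in rat prefrontal cortex as 3 genes out of the 29663 in the deposited expression table. They were chosen by Ensembl gene ID: ENSRNOG00000008223 for Cnr1, ENSRNOG00000014508 for Mgll and ENSRNOG00000011019 for Faah. The table lists IDs without symbols, and the reference table at hand (GRCr8, 47357 genes) pairs 0 of them with a symbol, so the symbols are those the IDs were chosen under and could not be checked here. Tissue came from male Sprague-Dawley rats in 4 groups of 3 RNA libraries: WIN+cocaine, given both drugs; cocaine alone; WIN alone, WIN being a synthetic cannabinoid receptor agonist; and control, labelled only as such. The study asks how cannabinoid exposure in adolescence changes a later first response to cocaine; doses, ages at sampling and the interval between drugs were not stated in the labels. Whether the replicates are separate animals is not stated either, so p-values measure the spread between these libraries, which may be technical. No agent or allele common to all 4 groups is named in the labels.

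The endocannabinoid system is a brake on transmitter release. Neurons make the lipids anandamide and 2-arachidonoylglycerol (2-AG) on demand, and these travel back across the synapse to CB1, the G protein-coupled receptor that Cnr1 encodes, which lowers release from the axon terminal. In the cortex CB1 is densest on the terminals of cholecystokinin interneurons and is also present on those of excitatory neurons. Monoacylglycerol lipase, the product of Mgll, ends the signal of 2-AG, and fatty acid amide hydrolase, the product of Faah, ends that of anandamide.

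Values are FPKM, reads scaled by gene length and by the library total, so levels can be set side by side between genes. The read totals behind the FPKM ran from 20853971 to 27679012 per library. Each library's first principal component over the tested genes, with the 3 genes left out, held 28.5% of the variance. The cocaine libraries had scores of 27.2, 22.9 and 9.94 on it, against -8.43, -20.2 and -10.3 for control. WIN replicate 3 stood apart from its group, at 10.3 against -18.8 and -11.9 for WIN replicates 1 and 2. It also had the lowest limma library weight of the 12 libraries, 0.296. That weight falls as a library departs from its group mean over the tested genes, so it is not a separate measure of quality.

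Mgll was the most abundant of the 3 genes, at 92.6 ± 6.54 FPKM over all libraries (SD, n = 12), a mean exceeded by 6.69% of the 15326 genes tested. Cnr1 averaged 34.9 ± 5.70 FPKM (SD, n = 12), exceeded by 18.9% of genes. Faah averaged 1.76 ± 1.78 FPKM (SD, n = 12), exceeded by 86.6% of genes. As background, Faah is known to be well expressed in cortical neurons. The level under its listed ID goes against that, so its values below are those of the ID, with the name unchecked. The FPKM values imply gene lengths of 5465 bp for Cnr1, 3282 bp for Mgll and 3526 bp for Faah in the authors' annotation. With those lengths the reads per library were 3286 to 5916 for Cnr1, 6234 to 8565 for Mgll and 10 to 418 for Faah.

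**Figure D1:**
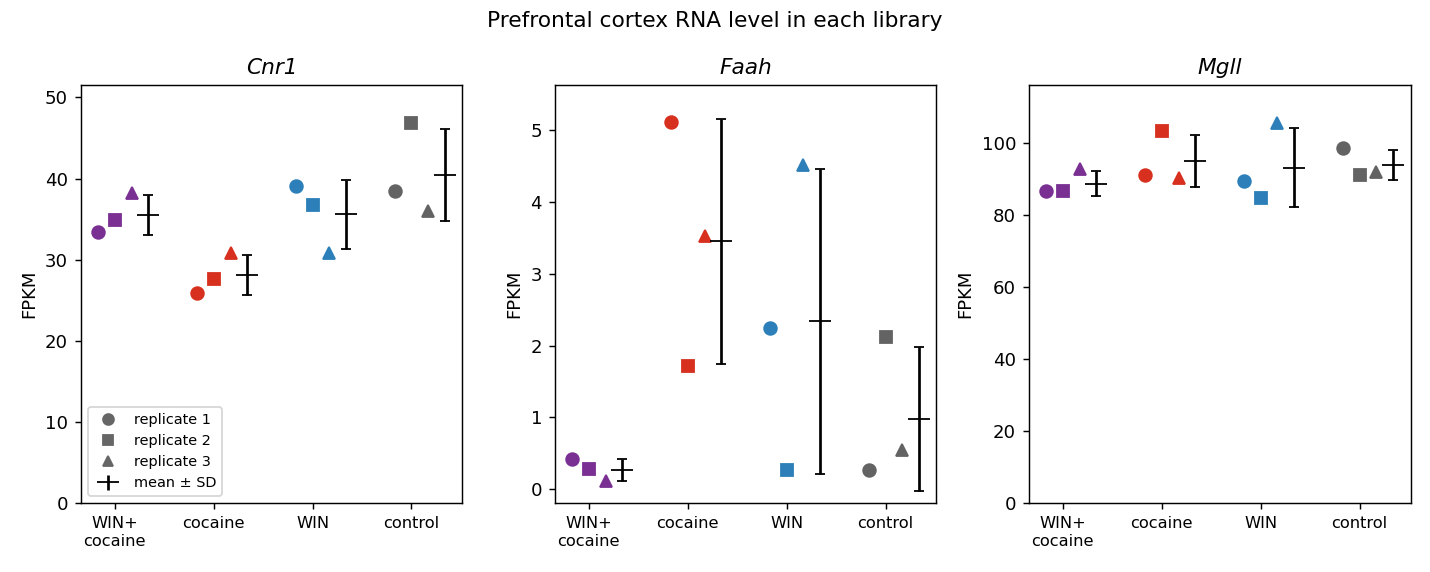
RNA level in FPKM (vertical axes, each on its own scale) of Cnr1, Faah and Mgll in every library by treatment group; symbols mark replicates 1 to 3 and the black bar is the group mean ± SD (n = 3). The cocaine libraries hold the lowest Cnr1 values, Faah spreads from 0.110 to 5.12 FPKM, and Mgll stays between 84.5 and 105 FPKM.

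Cnr1, the receptor gene, was lowest in cocaine. Its FPKM was 26.0, 27.6 and 30.9 in the cocaine libraries, against 38.5, 46.9 and 36.0 in the control libraries. Every cocaine value lay below every control value. The group means were 28.2 ± 2.49 FPKM in cocaine and 40.5 ± 5.67 FPKM in control (SD, n = 3 each). In a bulk sample, fewer cells that express Cnr1 and less Cnr1 RNA per cell cannot be told apart. The difference was -0.50 on the log2(FPKM + 1) scale (95% confidence interval -0.75 to -0.25), or 0.706-fold, with an unadjusted limma p of 0.000907. It did not pass adjustment over all genes. The limma adjusted p was 0.0596, the smallest reached in cocaine against control. That value was a tie, shared by the 213 genes with a smaller unadjusted limma p than Cnr1.

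This comparison was broad. At an unadjusted p under 0.05, 2455 genes were lower in cocaine, 16% of those tested, and in 3294 genes, 21.5%, the cocaine libraries lay below all control libraries without overlap. Limma called 0 genes (0%) at an adjusted p under 0.05, with 4768 (31.1%) at an unadjusted p under 0.05; limma voom called 0, and voom with quality weights, chosen after the data were seen, called 2277. Within this background 213 genes, 1.39%, had a smaller p than Cnr1, and its difference lay outside the central 90% of all genes, which ran from -0.41 to 0.46. The adjusted p of Cnr1 ran from 0.0165 to 0.239 over 24 alternatives and was under 0.05 in 5 of them. Without WIN replicate 3, which enters only the estimate of spread here, it was 0.0165; without control replicate 2, the highest control library, the difference was -0.39 with an adjusted p of 0.239.

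With both drugs, the mean Cnr1 level lay between those of cocaine and control. The WIN+cocaine libraries had 33.4, 34.9 and 38.3 FPKM, against 26.0, 27.6 and 30.9 FPKM in the cocaine libraries. All WIN+cocaine values lay above all cocaine values, as they did for 11.3% of the tested genes. WIN+cocaine averaged 35.5 ± 2.51 FPKM and cocaine 28.2 ± 2.49 FPKM (SD, n = 3 each), a log2 difference of 0.33 (95% interval 0.08 to 0.58) with an unadjusted limma p of 0.0147. It did not pass adjustment, with a limma adjusted p of 0.468, and 0.253 without WIN replicate 3. For WIN+cocaine against cocaine limma called 0 genes, with 1623 (10.6%) at an unadjusted p under 0.05; limma voom called 0 and voom with quality weights 0.

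WIN alone gave no separable change in Cnr1. Its level was 39.1, 36.8 and 30.9 FPKM in the WIN libraries, against 38.5, 46.9 and 36.0 FPKM in control. The groups overlapped, and the lowest WIN value is that of replicate 3, level with cocaine replicate 3. The log2 difference was -0.18 (95% interval -0.43 to 0.07), with a limma adjusted p of 0.999, and it was -0.08 without WIN replicate 3. Of all genes 1.55% had an unadjusted p under 0.05 here. The interval does not exclude a fall of the size of the lower bound.

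Between the WIN-treated groups, with and without cocaine, no difference in Cnr1 was measurable. WIN+cocaine averaged 35.5 ± 2.51 FPKM and WIN 35.6 ± 4.24 FPKM (SD, n = 3 each), and the values overlapped. The log2 difference was 0.0015 (95% interval -0.25 to 0.25; limma adjusted p of 0.999), in a comparison with 3.76% of genes at an unadjusted p under 0.05. Without WIN replicate 3 it was -0.09. WIN+cocaine against control, 35.5 ± 2.51 and 40.5 ± 5.67 FPKM (SD, n = 3 each), differed by -0.18 (95% interval -0.43 to 0.07), with a limma adjusted p of 0.664 and 7.91% of genes at an unadjusted p under 0.05, and those groups also overlapped. Without control replicate 2 the difference was -0.07 for WIN+cocaine against control and also for WIN against control.

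Ordered by mean, Cnr1 thus ran from control through WIN and WIN+cocaine to cocaine. Only the last step, WIN+cocaine to cocaine, had no overlap between neighbours. The test of whether the cocaine difference itself depended on WIN, the interaction, gave 0.50 on the log2 scale (95% interval 0.15 to 0.86) with an unadjusted limma p of 0.00899 and an adjusted p of 0.539; 131 genes had a smaller p, and 9.02% of all genes had an unadjusted p under 0.05. Without WIN replicate 3 the interaction was 0.41. Averaged over both WIN states, where 25.5% of genes had an unadjusted p under 0.05, cocaine differed by -0.25 (95% interval -0.43 to -0.07; limma adjusted p of 0.101; exact two-sided permutation p of 0.065 within WIN states, where 0.005 is the smallest possible). Without WIN replicate 3, the WIN library lowest in Cnr1, these became -0.30, an adjusted p of 0.0212 and an exact permutation p of 0.015. With any other library left out, the limma adjusted p ran from 0.0949 to 0.245. Averaged over both cocaine states, WIN differed by 0.07 (95% interval -0.10 to 0.25), with 2.44% of genes at an unadjusted p under 0.05. Leaving out 1 library moved that value: it became 0.036 when control replicate 3 was omitted, 0.13 for control replicate 2, 0.12 for WIN replicate 3, 0.039 for WIN replicate 1, and 0.047 for cocaine replicate 1 and WIN+cocaine replicate 3 alike. In each of the 8 comparisons limma called 0 genes (0%) at an adjusted p under 0.05.

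**Figure D2:**
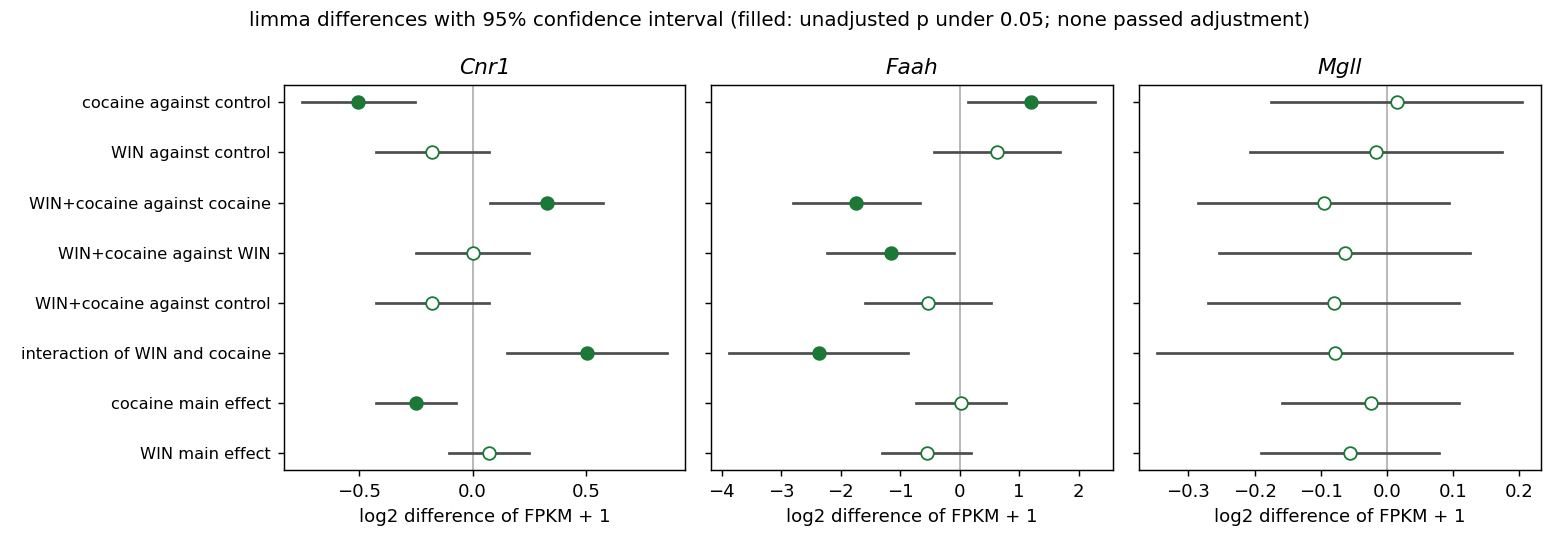
Differences of Cnr1, Faah and Mgll on the log2(FPKM + 1) scale (horizontal axes, each on its own scale) in the 8 comparisons. Those between pairs of groups are the first-named group minus the second. The others are the interaction and the main effects, each drug's difference averaged over the states of the other drug. Circles are limma estimates and lines their 95% confidence intervals. Filled circles had an unadjusted p under 0.05, 4 for Cnr1 and 4 for Faah, and none passed an adjusted p of 0.05.

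Cnr1 followed the main axis of variation of the libraries closely. From its lowest level upward the libraries ran cocaine 1, cocaine 2, cocaine 3, WIN 3, WIN+cocaine 1, WIN+cocaine 2, control 3, WIN 2, WIN+cocaine 3, control 1, WIN 1 and control 2. On the first principal component the same libraries ran in nearly that order from the highest value downward: 5 held the identical place, 3 were off by 1 place, 3 by 2 places and WIN+cocaine replicate 3 by 3 places. Of 13629 other genes with an Ensembl ID and a mean of at least 1 FPKM, 243 had a Pearson r above 0.9 with Cnr1 over the 12 libraries. The gene most like it was ENSRNOG00000005333, with r of 0.982 and a level of 15.3 to 27.2 FPKM. That ID had 15.3 to 18.8 FPKM in the cocaine libraries and 21.6 to 27.2 FPKM in control. Those groups did not overlap, as for 21.5% of tested genes that were lower in cocaine. The ID was picked for its likeness to Cnr1 in these same libraries, so its separation adds no evidence to that of Cnr1. What the axis itself reflects was not tested.

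**Figure D3:**
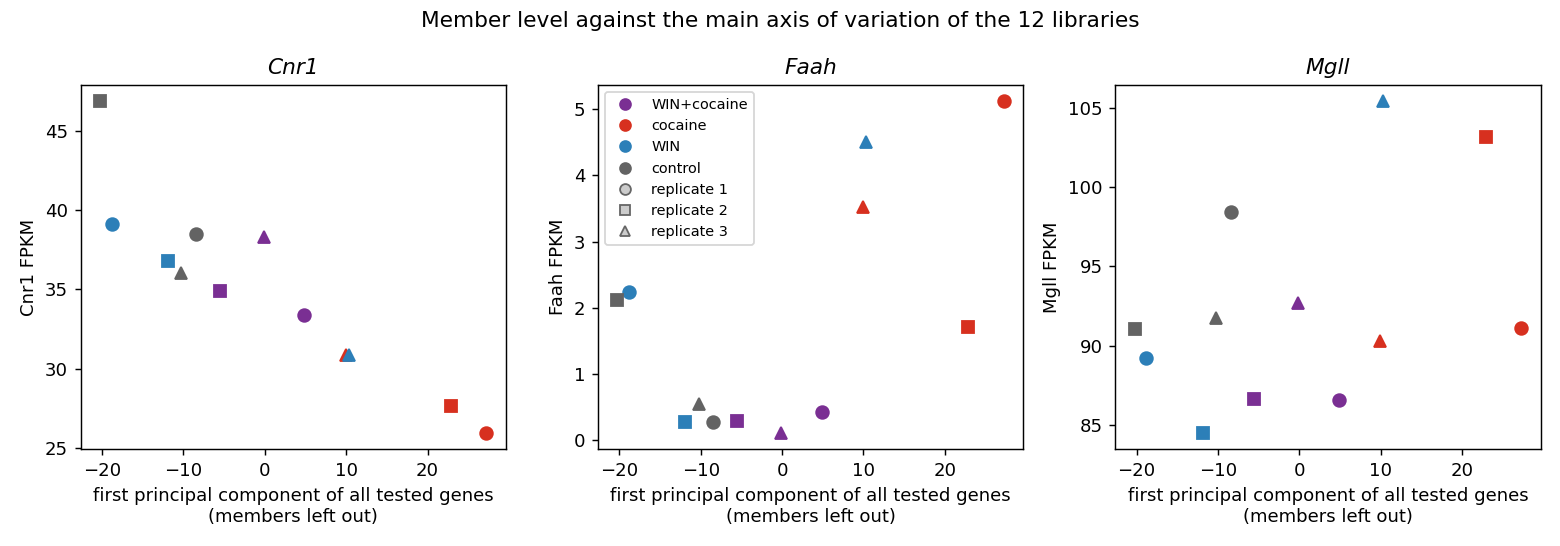
FPKM of Cnr1, Faah and Mgll (vertical axes) in each of the 12 libraries against the library's first principal component over all other tested genes (horizontal axis, arbitrary units, 28.5% of the variance); colours are groups and symbols replicates. Cnr1 falls from 46.9 FPKM in control replicate 2 to 26.0 FPKM in cocaine replicate 1 along this axis, and WIN replicate 3 lies beside cocaine replicate 3. In Faah the 4 libraries highest on the axis, cocaine 1 to 3 and WIN 3, all have at least 1.71 FPKM. So do the libraries lowest on it, control 2 and WIN 1, at 2.12 and 2.24 FPKM.

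Gene length moved slightly with the cocaine difference. Among the 1397 tested genes of 4000 to under 6000 bp, the range that holds Cnr1, the median log2 difference of cocaine against control was -0.06, beside 0.01 for the 2922 genes under 1000 bp and -0.02 for all genes. With each library's length trend removed, an alternative chosen after the data were seen, the Cnr1 difference was -0.46 with a limma adjusted p of 0.0585.

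**Figure D4:**
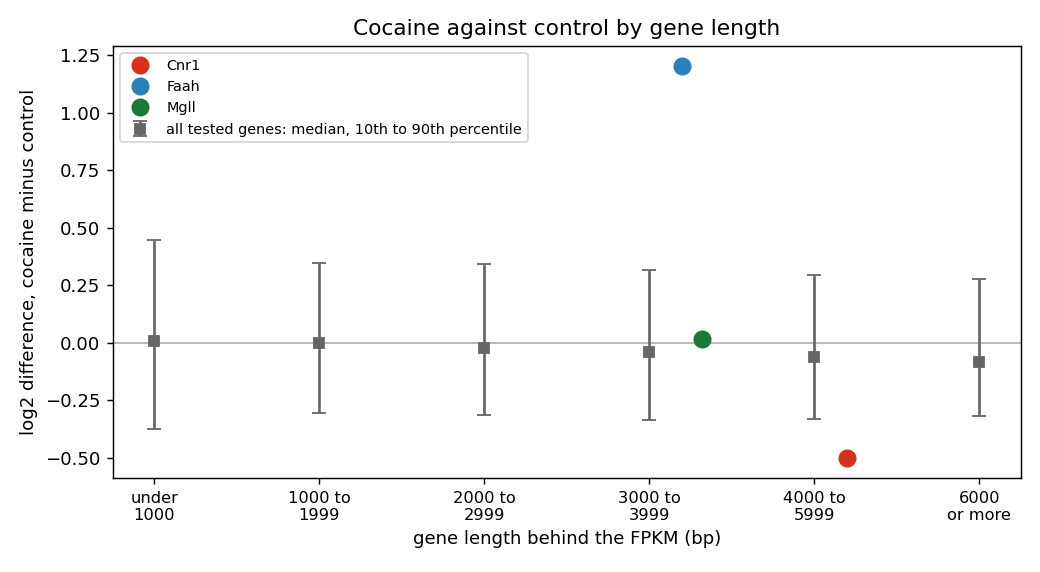
Difference of cocaine minus control on the log2(FPKM + 1) scale (vertical axis) by gene length (horizontal axis, bp, in 6 ranges); grey squares are medians of all tested genes with bars from the 10th to the 90th percentile, and coloured circles the 3 genes at -0.50 (Cnr1), 1.21 (Faah) and 0.01 (Mgll). Cnr1 lies below the bar of its own length range and Faah above its own, whereas Mgll lies near the median.

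Mgll, the 2-AG hydrolase gene, was the steadiest of the 3. Its FPKM was 86.6, 86.7 and 92.7 in WIN+cocaine, 91.1, 103 and 90.3 in cocaine, 89.2, 84.5 and 105 in WIN, and 98.5, 91.1 and 91.7 in control. All groups overlapped one another, and the highest library, WIN replicate 3, was 1.25-fold above the lowest, WIN replicate 2. Cocaine averaged 94.9 ± 7.23 FPKM and control 93.8 ± 4.09 FPKM (SD, n = 3 each), a log2 difference of 0.01 (95% interval -0.18 to 0.21). WIN+cocaine, with the lowest mean at 88.6 ± 3.50 FPKM (SD, n = 3), differed from cocaine by -0.10 (95% interval -0.29 to 0.09), from WIN by -0.06 (-0.25 to 0.13) and from control by -0.08 (-0.27 to 0.11). The limma adjusted p of Mgll lay between 0.645 and 0.999 in the 8 comparisons. These intervals leave room for differences of up to 0.29 on the log2 scale between pairs of groups, and so do not show that the groups were alike. Without WIN replicate 3, Mgll differed by -0.11 in WIN against control and by 0.028 in WIN+cocaine against WIN. Averaged over cocaine states, WIN differed by -0.056 in Mgll, and by -0.10 when WIN replicate 3 was left out, -0.023 for WIN replicate 2 and -0.025 for cocaine replicate 2.

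The residual spread of Mgll within groups was 0.11 on the log2 scale, smaller than in 74.2% of tested genes. Among the 1752 genes with a mean within 2-fold of that of Mgll, 61.0% had a larger spread. For Cnr1 that share was 28.3% of 3903 genes. The levels of Mgll did not follow those of Cnr1: the highest Mgll values were those of WIN replicate 3 and cocaine replicate 2, at 105 and 103 FPKM. The gene most like Mgll over the 12 libraries was ENSRNOG00000018414, with a Pearson r of 0.925 and 22.9 to 29.0 FPKM, and 2 of the 13629 genes had an r above 0.9. Between the 3 genes themselves r was -0.47 for Cnr1 and Faah, -0.31 for Cnr1 and Mgll and 0.36 for Faah and Mgll over the same libraries, given as a description; 10044, 8989 and 1973 of the 13629 genes had a higher r with the first-named gene.

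Faah, the anandamide hydrolase gene by its listed ID, was low and uneven. Its FPKM was 0.419, 0.282 and 0.110 in WIN+cocaine, 5.12, 1.71 and 3.52 in cocaine, 2.24, 0.266 and 4.51 in WIN, and 0.265, 2.12 and 0.547 in control. The highest library exceeded the lowest 46.7-fold, and the WIN and control groups each held both low and high libraries. The 22 reads of control replicate 1 have an exact 95% Poisson interval of 13.8 to 33.3, and the 156 reads of control replicate 2 one of 132 to 182. Such intervals cover counting error only.

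The libraries were split at the widest step between neighbouring Faah values, a cut that can be placed in any set of values. That step was 3.12-fold, from 0.547 to 1.71 FPKM, and the groups on either side of it are given as description only. Above it lay 6 libraries, of which 3 were cocaine, 2 WIN and 1 control; no WIN+cocaine library was among them. The residual spread within groups was 0.71 on the log2 scale, and 1.73% of the 3758 tested genes with a mean within 2-fold of that of Faah had a larger one. WIN replicate 3 was high in Faah as well as in Mgll and low in Cnr1.

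WIN+cocaine against cocaine was the comparison in which Faah separated. The WIN+cocaine libraries had 0.419, 0.282 and 0.110 FPKM, from 40, 22 and 10 reads, against 5.12, 1.71 and 3.52 FPKM in cocaine, from 418, 141 and 325 reads. No values overlapped, as for 6.7% of tested genes that were lower in WIN+cocaine. The means were 0.270 ± 0.155 FPKM in WIN+cocaine and 3.45 ± 1.71 FPKM in cocaine (SD, n = 3 each). The difference was -1.74 on the log2(FPKM + 1) scale (95% interval -2.80 to -0.67), with an unadjusted limma p of 0.00401, smaller than in all but 88 genes. It did not pass adjustment, with a limma adjusted p of 0.468 and a range of 0.253 to 0.686 over 23 alternatives. At these low values the pseudocount sets the size: a pseudocount of 0.1 gave -3.23, and limma voom on reads recovered from the FPKM gave -3.70.

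The other Faah comparisons overlapped. Cocaine against control, 3.45 ± 1.71 and 0.978 ± 1.00 FPKM (SD, n = 3 each), differed by 1.21 (95% interval 0.14 to 2.27; limma adjusted p of 0.120), and control replicate 2 lay above cocaine replicate 2. WIN against control, 2.34 ± 2.13 and 0.978 ± 1.00 FPKM (SD, n = 3 each), differed by 0.63 (95% interval -0.43 to 1.69; limma adjusted p of 0.999). WIN+cocaine against WIN, 0.270 ± 0.155 and 2.34 ± 2.13 FPKM (SD, n = 3 each), differed by -1.16 (95% interval -2.23 to -0.10; limma adjusted p of 0.975), and WIN replicate 2, at 0.266 FPKM, lay among the WIN+cocaine values. WIN+cocaine against control differed by -0.53 (95% interval -1.60 to 0.53; limma adjusted p of 0.751). That value was -0.15 without control replicate 2, while a pseudocount of 0.1 gave -1.22 and limma voom -1.44. The interaction was -2.37 (95% interval -3.87 to -0.86), with an unadjusted limma p of 0.00509 and an adjusted p of 0.539, and 56 genes had a smaller p. Averaged over the WIN states, cocaine differed by 0.02 (95% interval -0.73 to 0.77) in Faah; averaged over the cocaine states, WIN differed by -0.55 (95% interval -1.31 to 0.20). Omitting WIN replicate 3 made the last value -0.79, omitting WIN replicate 2 made it -0.26, and omitting control replicate 2 made it -0.36. WIN against control in Faah became 1.21 when WIN replicate 2 was left out, 1.02 for control replicate 2 and 0.36 for control replicate 1. Without WIN replicate 3, Faah differed by 0.15 in WIN against control, by -0.68 in WIN+cocaine against WIN and by -1.89 in the interaction, with the same signs.

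Faah shared its pattern with few genes. Its closest match was ENSRNOG00000021015, with a Pearson r of 0.839 over the 12 libraries and 2.65 to 4.68 FPKM, and 0 of the 13629 genes had an r above 0.9.

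Ratios within a library do not depend on how libraries were scaled. The ratio of Cnr1 to Mgll was 0.386 to 0.413 in WIN+cocaine, 0.268 to 0.342 in cocaine, 0.293 to 0.438 in WIN and 0.391 to 0.514 in control. Cocaine lay below control with no overlap, by -0.53 on the log2 scale, and WIN+cocaine lay above cocaine with no overlap, by 0.43. Each had an exact two-sided permutation p of 0.1, the smallest that 3 libraries against 3 allow. Cnr1 alone separated in the same ways, as did 21.5% and 11.3% of tested genes, so the ratio is not separate evidence. The share among ratios of other genes was not computed. Averaged over WIN states the cocaine difference of this ratio was -0.23 with an exact permutation p of 0.165. Without WIN replicate 3, which held the lowest WIN ratio, it was -0.33 with an exact permutation p of 0.005, the smallest possible there. With each library left out in turn the difference ran from -0.33, the value without WIN replicate 3, to -0.17. An exact p is given here for that omission only. The ratio of Cnr1 to Faah had medians of 124 in WIN+cocaine, 8.76 in cocaine, 17.4 in WIN and 65.9 in control. It ran from 79.7 to 349 in WIN+cocaine, 5.07 to 16.2 in cocaine, 6.84 to 138 in WIN and 22.1 to 145 in control. Cocaine lay below control and below WIN+cocaine without overlap, each with an exact permutation p of 0.1. Cnr1 alone separated in both, so this ratio is not separate evidence either. Cocaine and WIN, a pair that was not tested, overlapped through WIN replicate 3, at 6.84. The other WIN libraries, at 17.4 and 138, lay above the cocaine maximum of 16.2, the former narrowly. The value of 138 is that of WIN replicate 2, which had 25 Faah reads. The ratio of Faah to Mgll was 0.00118 to 0.00484 in WIN+cocaine and 0.0166 to 0.0562 in cocaine, also without overlap, with an exact permutation p of 0.1. Faah alone was lower there without overlap too, as were 6.7% of tested genes. For single genes the same exact test gave 0.1 in cocaine against control for Cnr1 and 0.2 for Faah and 0.9 for Mgll, and in WIN+cocaine against cocaine 0.1, 0.1 and 0.3 for Cnr1, Faah and Mgll.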

How the data were processed

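The authors deposited FPKM values, with Ensembl IDs, for the prefrontal cortex libraries. Per the labels' protocols, a stranded kit was used on total RNA. HISAT2, HTSeq and DESeq are named in the submitters' processing notes. Build, annotation and strand setting were not given in the sources used here. Reads of overlapping genes or near-identical copies may therefore be shared or lost. ATAC regions and nucleus accumbens libraries were not used here.

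Whole reads and gene lengths solved the FPKM of each of 24197 genes above 0 (tolerance 1e-06; 100% whole). Genes needed 1 FPKM in 3 libraries, leaving 15326. limma 3.58.1 (R 4.3.3) was fitted to log2(FPKM + 1) with 1 mean per group, all 12 libraries, a trended prior and Benjamini-Hochberg adjustment over all genes. Such fold changes understate low genes. The fit was also run on simulated data with noise drawn independently for each gene. These libraries share a main axis of variation, so that run does not vouch for the p-values here. Exact two-sided permutation tests enumerated all relabelings (Python 3.11.15), 21 on single genes and 21 on ratios. With all libraries kept, 0 of either family had an exact permutation p under 0.05. Only the tests averaged over the states of the other drug could: 3 libraries against 3 allow none below 0.1. Named genes are the 3 chosen and, for each, the Ensembl ID with the highest Pearson r. Genes and lists were chosen with earlier results of these data known. Pathway and cell type marker lists, set by symbol, could not be matched to IDs and were not analysed here. Alternatives covered the pseudocount, filter, scaling, spread, pairing and each library left out.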

Additional observations from a re-analysis of the deposited data

Results flagged for a closer look

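For Cnr1, all 3 WIN libraries lay below the control mean while all 3 WIN+cocaine libraries lay above the cocaine mean. The WIN and control libraries overlapped, and control replicate 2, at 46.9 FPKM, raised the control mean. For Faah, all 3 WIN+cocaine libraries lay below the WIN mean while all 3 cocaine libraries lay above the control mean. Those pairs of groups overlapped too, and WIN replicate 3, at 4.51 FPKM, raised the WIN mean, so the position relative to a mean shows no direction by itself. The interaction, which tests the difference itself, was 0.50 for Cnr1 and -2.37 for Faah on the log2(FPKM + 1) scale. Neither passed adjustment in limma, with an adjusted p of 0.539 each. The WIN+cocaine against cocaine comparison in each gene shares its cocaine libraries with cocaine against control.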

How the results depend on the processing

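No alternative called Cnr1, Faah or Mgll in WIN+cocaine against cocaine, WIN against control, WIN+cocaine against WIN, WIN+cocaine against control or the interaction. Cnr1 in cocaine against control passed an adjusted p of 0.05 in limma with genes of at least 5 FPKM in 3 libraries (-0.50, adjusted p = 0.0449), only the libraries compared (-0.50, 0.0411), library weights (-0.43, 0.0312) and voom with quality weights (-0.46, 0.0246), the last chosen after the data were seen. Those settings called 1142, 1378, 2083 and 2277 genes in that comparison, and only the libraries compared called 1 in WIN+cocaine against cocaine. Faah passed there with voom and quality weights (2.40, 0.0498), and had no value under the filter at 5 FPKM. Averaged over WIN states, Cnr1 passed for cocaine with library weights (-0.24, 0.0421) and voom with quality weights (-0.26, 0.0325), which called 2797 and 2850 genes.

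Values near 0 changed sign. For Cnr1 in WIN+cocaine against WIN, median-ratio scaling gave -0.00057, quantile normalization -0.0050, library weights -0.060, voom with quality weights -0.066 and length-trend removal, also chosen after the data were seen, -0.011. For Mgll, library weights and voom with quality weights gave 0.010 and 0.0027 in WIN+cocaine against WIN and 0.0065 and 0.0038 for cocaine averaged over WIN states; library weights gave 0.0072 in the interaction, and quantile normalization -0.024 in cocaine against control. For Faah and cocaine averaged over WIN states, a pseudocount of 0.1 gave -0.091 and voom -0.13. The causes were not tested.

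With each library left out in turn, genes called ran from 0 to 2782 in cocaine against control and from 0 to 3289 for cocaine averaged over WIN states, each highest without WIN replicate 3, and 0 in WIN+cocaine against WIN and from 0 to 1 in the other 5. Cnr1 ran from -0.58 to -0.39 in cocaine against control, from -0.094 to 0.071 in WIN+cocaine against WIN and from -0.30 to -0.20 for cocaine averaged over WIN states; the log2 ratio of Cnr1 to Mgll ran from -0.33 to -0.17 for the last. Mgll ran from -0.046 to 0.050 in cocaine against control, -0.11 to 0.049 in WIN against control, -0.13 to 0.028 in WIN+cocaine against WIN, -0.14 to 0.013 in the interaction and -0.057 to 0.022 for cocaine averaged over WIN states, where Faah ran from -0.27 to 0.26.

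Deviations of libraries sharing a replicate number had correlations of -0.28 to 0.20 (median 0.014), and the labels give no shared source, so libraries were taken to share only a number. A replicate block in limma called 3 genes for cocaine against control, where Cnr1 had an adjusted p of 0.0867, and 2 for cocaine averaged over WIN states. With 3 libraries a group, and 10 to 40 Faah reads in the lowest libraries, moderate differences may go undetected.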
